A study of Homo sapiens with 6 samples.

Results

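The 10 genes described here encode YAP-TEAD factors and targets: the co-activators YAP1 and WWTR1 (the protein known as TAZ), the DNA-binding factors TEAD1 and TEAD4, the target genes CCN1, CCN2 and ANKRD1, and the regulators AMOTL2, AJUBA and LATS2. They were chosen by symbol, with earlier results of these data known, and all 10 were found among the 21631 symbols of a table of raw read counts. The counts come from RNA sequencing of A-375, a widely used cell line from a human melanoma, in 3 libraries labelled sgSEPHS2 and 3 libraries labelled sgCTRL. The series describes the first group as SEPHS2 knockout cells and the second as control cells, and an sg prefix is the usual name for a CRISPR single guide RNA. SEPHS2 encodes the enzyme that makes selenophosphate, the selenium donor for selenocysteine. The labels give no treatment, time, guide sequence or clone for either group, so what the guide did and what the founding cells of each group already differed in cannot be told apart. No label says that the replicates were separate cultures, and a p-value here covers the variation among these libraries alone, which may be technical.

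YAP1 and WWTR1 proteins do not bind DNA themselves. When the Hippo kinase cascade is quiet they enter the nucleus, bind TEAD factors and switch on genes of growth, adhesion and the matrix. When the cascade is active, LATS kinases phosphorylate them and hold them in the cytoplasm. Several targets feed back on the pathway, LATS2 and AMOTL2 among them. In melanoma, YAP and TAZ activity is known for its link to invasive, less differentiated cells. The regulation is mostly of the proteins, so mRNA levels of YAP1, WWTR1 and the TEAD genes do not measure their activity, whereas CCN1, CCN2 and ANKRD1 mRNAs are widely used as readouts of it.

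The libraries held between 34606145 and 43405579 counted reads, fewest in sgSEPHS2 replicate 1. SEPHS2 mRNA was not lower in the libraries labelled sgSEPHS2. It averaged 173 ± 3.85 CPM there and 156 ± 3.32 CPM in the sgCTRL libraries (SD, n = 3 each; log2 fold change 0.15, edgeR adjusted p = 0.00286). A count over the whole gene does not show whether a reading frame was disrupted, so every direction below rests on the labels. CPM are reads per 1000000, with library sizes scaled by TMM factors, and each log2 fold change is sgSEPHS2 over sgCTRL. Genes were called changed at an adjusted p under 0.05 in edgeR's quasi-likelihood test over 16910 genes. In bulk RNA a change in the number of cells that express a gene and a change in its RNA per cell cannot be told apart.

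Of the 10 genes, 4 rose in the libraries labelled sgSEPHS2 and 2 fell, while 4 did not pass the test. The 3 target genes used as readouts rose, ANKRD1 by 2.35-fold, CCN2 by 1.83-fold and CCN1 by 1.22-fold. The regulator AJUBA rose by 1.32-fold. The co-activator WWTR1 and the kinase gene LATS2 fell. All 10 genes passed the filter on low counts. The call applied to 45.6% of all tested genes, 22.2% higher and 23.4% lower, so calls were common throughout these libraries. The same 6 members had groups that did not overlap in CPM, as did 52.1% of all tested genes. The median log2 fold change was 0.01 over the 10 members and 0.01 over all tested genes.

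**Figure D1:**
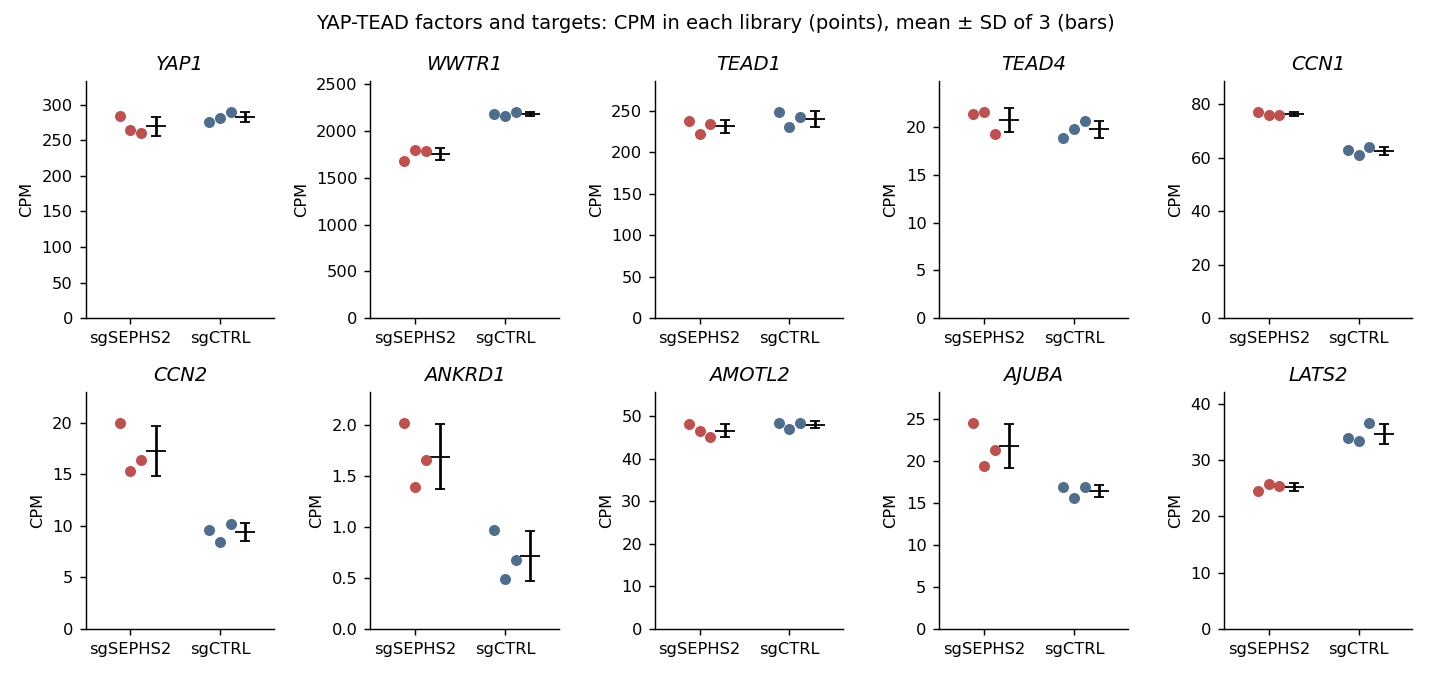
CPM of the 10 genes in each library (points), with the mean ± SD of 3 libraries beside them (bars), for libraries labelled sgSEPHS2 and sgCTRL; each panel has its own vertical axis, starting at 0. The groups are apart for WWTR1, CCN1, CCN2, ANKRD1, AJUBA and LATS2 and overlap for YAP1, TEAD1, TEAD4 and AMOTL2.

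The co-activators were described first. WWTR1 (chromosome 3, 149517235 to 149724788, on GRCh38.p14, a protein-coding gene) had 1683, 1797 and 1784 CPM in the libraries labelled sgSEPHS2, against 2184, 2162 and 2202 CPM in the sgCTRL libraries. Every library labelled sgSEPHS2 was below every sgCTRL library. WWTR1 fell by 0.31 on the log2 scale (SE 0.04, edgeR adjusted p = 2.12e-06), and ranked 33rd of all symbols by mean CPM in the libraries labelled sgSEPHS2 and 18th in the sgCTRL libraries. YAP1 (chromosome 11, 102110447 to 102233424) had 284, 264 and 260.2 CPM in the libraries labelled sgSEPHS2, against 276, 281 and 289.7 CPM in the sgCTRL libraries. The groups overlapped because of sgSEPHS2 replicate 1, and YAP1 differed by -0.07 on the log2 scale (SE 0.04, edgeR adjusted p = 0.217). Without that library the log2 fold change was -0.11 and YAP1 was called lower (edgeR adjusted p = 0.0291).

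The balance of the 2 co-activators can be read without any library scaling, as a ratio of raw counts. The libraries labelled sgSEPHS2 held 0.169, 0.147 and 0.146 YAP1 reads per WWTR1 read, against 0.126, 0.13 and 0.132 in the sgCTRL libraries. The groups did not overlap, and the mean log2 ratio was 0.25 higher in the libraries labelled sgSEPHS2. An exact two-sided permutation test gave p = 0.1, the smallest that 3 against 3 allows, and 0.15 after adjustment over the 3 paralog ratios compared. Per kilobase of exon, WWTR1 had 209 ± 7.39 CPM in the libraries labelled sgSEPHS2 and 259 ± 2.38 CPM in the sgCTRL libraries. YAP1 had 42.8 ± 2.05 CPM per kilobase in the libraries labelled sgSEPHS2 and 44.8 ± 1.14 in the sgCTRL libraries (SD, n = 3 each). WWTR1 made up 83 ± 1.18% of the co-activator level per kilobase in the libraries labelled sgSEPHS2 and 85.3 ± 0.275% in the sgCTRL libraries, so it was the more abundant of the pair in both groups. The exon length was the union of all annotated exons, and which isoforms these cells use is not known from the counts. The antisense gene WWTR1-AS1 shares 795 exon bases with WWTR1. It held 735 reads over the 6 libraries, and since the strand setting is not given, reads from that overlap cannot be assigned to either gene. YAP1 shares 628 exon bases with an antisense gene not analysed here.

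The TEAD factors bind DNA and recruit the co-activators. TEAD1 (chromosome 11, 12674421 to 12944737) had 238, 223 and 234 CPM in the libraries labelled sgSEPHS2, against 249, 230.0 and 243 CPM in the sgCTRL libraries. TEAD4 (chromosome 12, 2959397 to 3040676) had 21.4, 21.6 and 19.3 CPM in the libraries labelled sgSEPHS2, against 18.9, 19.8 and 20.6 CPM in the sgCTRL libraries. Both genes had overlapping groups, with log2 fold changes of -0.06 for TEAD1 (SE 0.04, edgeR adjusted p = 0.305) and 0.07 for TEAD4 (SE 0.07, edgeR adjusted p = 0.419). The ratio of TEAD1 to TEAD4 reads also overlapped, at 10.3 to 12.1 in the libraries labelled sgSEPHS2 and 11.6 to 13.2 in the sgCTRL libraries (exact permutation p = 0.3, two-sided, 0.3 after adjustment).

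TEAD2, a family member outside the 10 genes, did change. It had 497, 631 and 544 reads in the libraries labelled sgSEPHS2, against 1257, 1294 and 1266 reads in the sgCTRL libraries, and fell by 1.12 on the log2 scale (SE 0.06, edgeR adjusted p = 2.52e-13). TEAD3 differed by -0.09 on the log2 scale (SE 0.08, edgeR adjusted p = 0.358). Per kilobase of exon, TEAD1 made up 55.3 ± 1.84% of the summed TEAD level in the libraries labelled sgSEPHS2 and 49.7 ± 1.6% in the sgCTRL libraries (SD, n = 3 each). TEAD2 made up 11.7 ± 0.413% in the libraries labelled sgSEPHS2 and 22.1 ± 0.725% in the sgCTRL libraries. TEAD4 made up 22.4 ± 1.06% and TEAD3 10.5 ± 0.491% in the libraries labelled sgSEPHS2, against 18.5 ± 0.719% and 9.73 ± 0.712% in the sgCTRL libraries. The summed level of the TEAD genes was 40.7 ± 0.904 CPM per kilobase in the libraries labelled sgSEPHS2 and 47.1 ± 0.619 CPM per kilobase in the sgCTRL libraries. The mean shares of TEAD1, TEAD3 and TEAD4 were higher in the libraries labelled sgSEPHS2, where TEAD2 was lower. None of TEAD1, TEAD3 and TEAD4 passed the test on its own level.

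**Figure D2:**
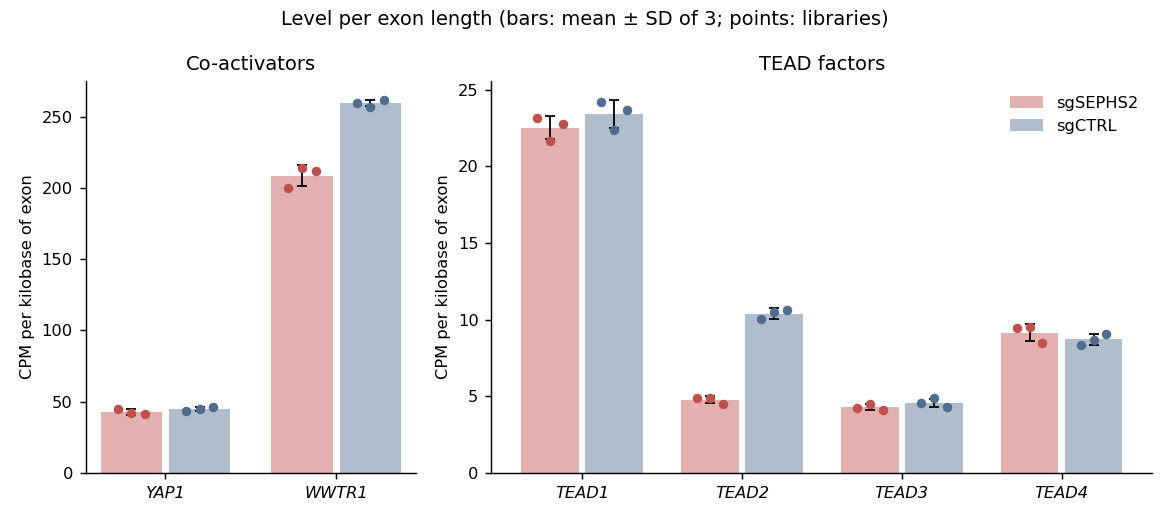
CPM per kilobase of exon for the co-activators (left) and the TEAD factors (right), in libraries labelled sgSEPHS2 and sgCTRL; bars are means ± SD of 3 libraries and points are libraries. WWTR1 stood far above YAP1 in both groups, and TEAD2 is the TEAD gene with clearly separate groups.

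The target genes CCN1, CCN2 and ANKRD1 were each higher in every library labelled sgSEPHS2 than in every sgCTRL library. LATS2 and AMOTL2, targets that feed back on the pathway, did not rise and are described with the regulators. CCN2 (chromosome 6, 131948176 to 131951372, protein-coding), a secreted matricellular protein, had 683, 661 and 665 reads in the libraries labelled sgSEPHS2, against 404, 348 and 405 reads in the sgCTRL libraries. That is 20, 15.3 and 16.4 CPM in the libraries labelled sgSEPHS2 and 9.59, 8.43 and 10.1 CPM in the sgCTRL libraries. CCN2 rose by 0.87 on the log2 scale (SE 0.10, edgeR adjusted p = 8.45e-08). An antisense gene shares 195 exon bases with CCN2, so the same limit on strand holds as for WWTR1.

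ANKRD1 (chromosome 10, 90912096 to 90921087, protein-coding), an ankyrin-repeat protein known from heart muscle, had the largest fold change of the 10 genes and the fewest reads. It had 69, 60 and 67 reads in the libraries labelled sgSEPHS2, against 41, 20 and 27 reads in the sgCTRL libraries. That is 2.02, 1.39 and 1.65 CPM in the libraries labelled sgSEPHS2 and 0.973, 0.484 and 0.676 CPM in the sgCTRL libraries. The groups did not overlap, and ANKRD1 rose by 1.23 on the log2 scale (SE 0.27, edgeR adjusted p = 5.56e-04). With 1 library left out the log2 fold change ranged from 1.02 to 1.53 and the adjusted p from 3.66e-04 to 0.00558.

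CCN1 (chromosome 1, 85580761 to 85583950, protein-coding), a close relative of CCN2, was the most abundant of the targets. It had 77.2, 76.2 and 76 CPM in the libraries labelled sgSEPHS2, against 62.9, 61.1 and 64 CPM in the sgCTRL libraries. The libraries of each group lay close together and the groups were apart, a rise of 0.29 on the log2 scale (SE 0.04, edgeR adjusted p = 7.07e-06). The libraries labelled sgSEPHS2 held 3.86, 4.96 and 4.63 CCN1 reads per CCN2 read, against 6.56, 7.25 and 6.3 in the sgCTRL libraries, a difference in mean log2 ratio of -0.59 without overlap (exact two-sided permutation p = 0.1, the smallest possible, and 0.15 after adjustment over the 3 ratios).

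TEAD factors bind a short sequence whose core reads GGAATG, or CATTCC on the other strand. Promoter windows from RefSeq, 250 bases before to 50 bases after a start on GRCh38.p14, were searched for it on both strands. Windows were available for 7 of the 10 genes, and not for TEAD1, TEAD4 and CCN1. The windows of CCN2, ANKRD1 and LATS2 are shown, these being the called genes with exactly 1 window. Each lies on the minus strand of the genome. Letters run 5′ to 3′ along the gene, and capitals mark each TEAD motif.
CCN2 (chr6:131951323-131951622): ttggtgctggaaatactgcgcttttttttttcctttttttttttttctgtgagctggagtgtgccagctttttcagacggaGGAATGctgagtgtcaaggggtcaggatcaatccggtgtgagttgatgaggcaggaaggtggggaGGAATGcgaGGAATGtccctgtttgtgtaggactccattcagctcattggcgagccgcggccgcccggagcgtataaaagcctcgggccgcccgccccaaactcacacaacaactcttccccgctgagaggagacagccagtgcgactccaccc
ANKRD1 (chr10:90921038-90921337): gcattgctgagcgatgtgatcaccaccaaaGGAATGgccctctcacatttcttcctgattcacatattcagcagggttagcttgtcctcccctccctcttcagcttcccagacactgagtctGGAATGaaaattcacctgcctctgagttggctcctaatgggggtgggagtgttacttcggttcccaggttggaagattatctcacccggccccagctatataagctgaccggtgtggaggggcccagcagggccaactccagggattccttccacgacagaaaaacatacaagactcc
LATS2 (chr13:21061537-21061836): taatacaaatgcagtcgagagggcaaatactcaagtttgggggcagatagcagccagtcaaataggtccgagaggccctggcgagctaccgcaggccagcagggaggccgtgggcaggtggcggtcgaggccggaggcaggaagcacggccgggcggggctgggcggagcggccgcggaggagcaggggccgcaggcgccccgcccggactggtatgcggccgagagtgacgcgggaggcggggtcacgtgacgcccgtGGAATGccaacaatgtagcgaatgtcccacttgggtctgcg

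The CCN2 window holds 3 copies of the motif, all on the strand of the gene, with first bases at -169, -104 and -95 from the start. The copies at -104 and -95 are separated by only a few bases. Of 35116 such windows of all genes, 14% hold at least 1 copy, 1.37% at least 2 and 0.128%, or 45 windows, at least 3. The ANKRD1 window holds 2 copies, with first bases at -220 and -128, and between them a match at -195 to the AP-1 motif TGANTCA, which 7.71% of all windows hold. The LATS2 window holds 1 copy that lies after the start, from base 10 to base 15. YAP1 itself has 1 copy at -162, and 1 of the 2 windows of AMOTL2 and of AJUBA has 1 copy, while neither window of WWTR1 has any. No window of these genes held a CArG box, the motif of serum response factor, which 1.29% of all windows hold. A match is a description of the letters and not evidence of binding.

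**Figure D3:**
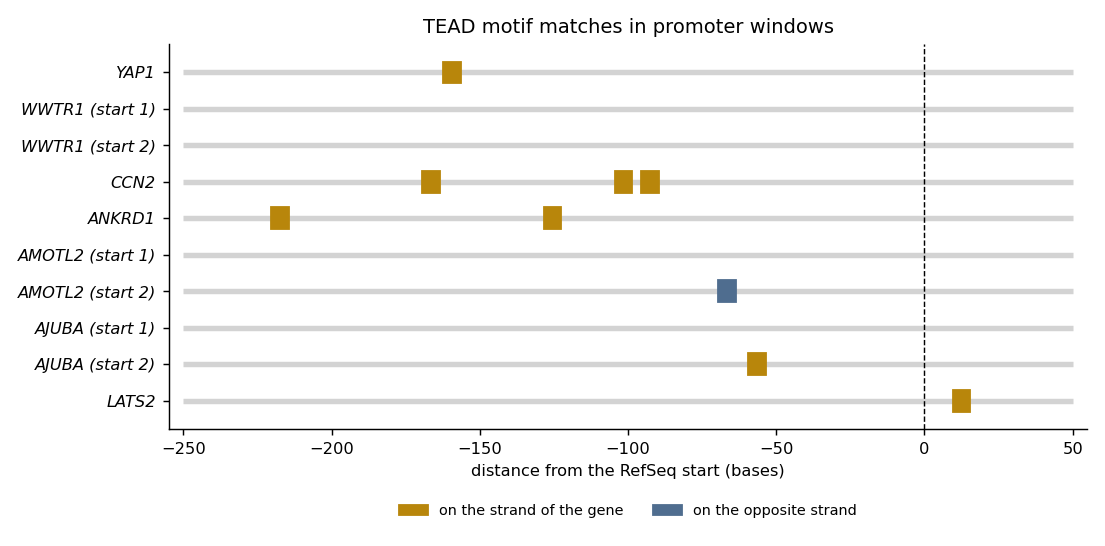
Positions of TEAD motif matches (blocks) in the RefSeq promoter windows of the 7 genes that have one, plotted by distance from the start in bases, with the start at the dashed line; genes with 2 windows have 2 rows. CCN2 holds 3 matches and ANKRD1 holds 2 upstream of the start, and the LATS2 match lies after it.

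The regulators did not move together. AJUBA (chromosome 14, 22971177 to 22982551, protein-coding), a LIM-domain adaptor that binds and restrains LATS kinases, had 24.6, 19.4 and 21.3 CPM in the libraries labelled sgSEPHS2, against 16.9, 15.6 and 16.9 CPM in the sgCTRL libraries. The groups did not overlap, although the libraries labelled sgSEPHS2 varied more, and AJUBA rose by 0.40 on the log2 scale (SE 0.08, edgeR adjusted p = 1.57e-04). AMOTL2 (chromosome 3, 134355345 to 134375417, protein-coding), an angiomotin family scaffold that holds YAP at junctions, had 48.2, 46.5 and 45.2 CPM in the libraries labelled sgSEPHS2, against 48.5, 47 and 48.5 CPM in the sgCTRL libraries. These groups overlapped, and AMOTL2 differed by -0.04 on the log2 scale (SE 0.05, edgeR adjusted p = 0.52). On the same strand, AJUBA shares 50 exon bases with another protein-coding gene and AMOTL2 shares 187 with a pseudogene. Neither of these was analysed here, and no strand setting could separate reads from those bases.

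LATS2 (chromosome 13, 20973036 to 21061586, protein-coding), one of the kinases that phosphorylate YAP and TAZ and itself a target gene of them, had 24.5, 25.7 and 25.4 CPM in the libraries labelled sgSEPHS2, against 33.9, 33.4 and 36.6 CPM in the sgCTRL libraries. LATS2 was lower in every library labelled sgSEPHS2 and fell by 0.46 on the log2 scale (SE 0.06, edgeR adjusted p = 4.57e-07). The genes of its chromosome were lower as a whole in these libraries. Over the other 318 tested genes of chromosome 13 the median log2 fold change was -0.40, with quartiles of -0.67 and -0.15, and 211 of them (66.4%) fell. LATS2 differed from that median by -0.05 on the log2 scale. The part of chromosome 13 in the fall of LATS2 was not tested. For the chromosomes of the other 9 genes the medians ranged from 0.00 on chromosome 14 to 0.04 on chromosome 6.

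**Figure D4:**
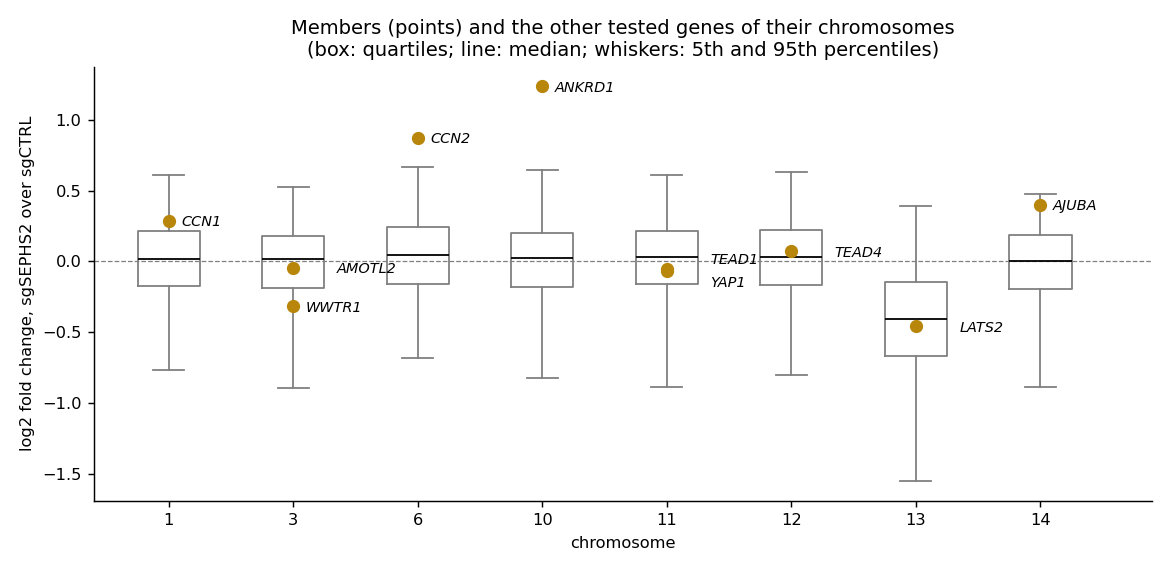
Log2 fold changes (sgSEPHS2 over sgCTRL) of the 10 genes, as points, over the other tested genes of the same chromosome, as boxes of the quartiles with the median and whiskers at the 5th and 95th percentiles. LATS2 lies near the median of chromosome 13, which is -0.40, while CCN2 and ANKRD1 lie above the upper whisker of their chromosomes.

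Levels per kilobase of exon put the 10 genes in a similar order in both groups. In the libraries labelled sgSEPHS2, WWTR1 and YAP1 were followed by CCN1 at 31.1 ± 0.252, TEAD1 at 22.5 ± 0.774 and TEAD4 at 9.14 ± 0.556 CPM per kilobase (SD, n = 3). Next came AMOTL2 at 7.79 ± 0.252 and CCN2 at 7.38 ± 1.04, which did not differ beyond their spread, then LATS2 at 4.52 ± 0.118, AJUBA at 3.64 ± 0.436 and ANKRD1 at 0.853 ± 0.159 CPM per kilobase. In the sgCTRL libraries CCN2, at 4.01 ± 0.375 CPM per kilobase, lay below LATS2 at 6.21 ± 0.313, and these genes changed places between the groups. CCN1 at 25.5 ± 0.581 and TEAD1 at 23.4 ± 0.932 CPM per kilobase were neighbours there, and AMOTL2 at 8.02 ± 0.141 lay just below TEAD4 at 8.7 ± 0.381 and AJUBA at 2.75 ± 0.126 above ANKRD1 at 0.359 ± 0.124.

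Other genes of the pathway were described from lists. Of 32 tested Hippo pathway genes outside the 10, 3 rose, 13 fell and 16 did not pass. That is 50% called, beside 45.6% of all tested genes (22.2% higher and 23.4% lower), and their median log2 fold change was -0.09, against 0.01 over all tested genes. None of the 6 genes of the core kinase cassette (STK3, STK4, SAV1, LATS1, MOB1A and MOB1B) passed edgeR's test at this threshold, with log2 fold changes from -0.09 to 0.07. Without sgSEPHS2 replicate 3, SAV1 was called lower (log2 fold change -0.13, edgeR adjusted p = 0.0482). None of the 6 had an unadjusted p under 0.05 with all libraries, and none was called by DESeq2 or limma-voom.

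Upstream of the kinases, 5 of 9 scaffold and receptor genes fell and 2 rose, where 23.4% of all tested genes were lower and 22.2% higher. DCHS1, a protocadherin that acts as a ligand of FAT4, had 8.25 ± 0.308 CPM in the libraries labelled sgSEPHS2 and 20.5 ± 1.69 CPM in the sgCTRL libraries (log2 fold change -1.31, SE 0.08, edgeR adjusted p = 1.27e-12). FRMD6, a FERM-domain activator of the cascade, had 140.2 ± 3.65 CPM in the libraries labelled sgSEPHS2 and 176 ± 4.1 CPM in the sgCTRL libraries (log2 fold change -0.33, edgeR adjusted p = 3.03e-07). NF2, the tumour suppressor merlin that brings LATS to the membrane, went the other way, with 49 ± 2.12 CPM in the libraries labelled sgSEPHS2 and 37.9 ± 2.36 CPM in the sgCTRL libraries (log2 fold change 0.37, edgeR adjusted p = 5.20e-06).

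Among proteins that bind the co-activators or the TEADs, AMOTL1, a paralog of AMOTL2, had 185 ± 14.1 CPM in the libraries labelled sgSEPHS2 and 260.1 ± 7.24 CPM in the sgCTRL libraries. It fell by 0.49 on the log2 scale (SE 0.05, edgeR adjusted p = 8.53e-09), whereas AMOTL2 did not pass. VGLL4, which competes with YAP for TEAD binding, had 30.1 ± 0.307 CPM in the libraries labelled sgSEPHS2 and 40.2 ± 0.821 CPM in the sgCTRL libraries and fell by 0.42 on the log2 scale (SE 0.05, edgeR adjusted p = 3.86e-07). VGLL3, the other tested TEAD cofactor of that family, rose, with 9.09 ± 1.59 CPM in the libraries labelled sgSEPHS2 and 6.23 ± 0.404 CPM in the sgCTRL libraries (log2 fold change 0.54, SE 0.12, edgeR adjusted p = 5.49e-04). The calls of the receptor gene FAT4 and of WTIP, an adaptor related to AJUBA, both lower, were lost when some single libraries were left out (edgeR adjusted p up to 0.0769 for FAT4 and 0.129 for WTIP). With all libraries WTIP was also not called by DESeq2 (DESeq2 adjusted p = 0.0638).

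A published signature of YAP and TAZ target genes holds 17 genes besides members of the 10, and all 17 were tested. Of these 4 rose, 3 fell and 10 did not pass, so 41.2% were called, below the 45.6% of all tested genes, and their median log2 fold change was 0.02.

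Those that rose were AXL, MYOF, CRIM1 and F3, the last named after its value was seen. AXL, a receptor tyrosine kinase, had 158 ± 3.85 CPM in the libraries labelled sgSEPHS2 and 118 ± 1.04 CPM in the sgCTRL libraries (log2 fold change 0.42, SE 0.04, edgeR adjusted p = 3.79e-09). MYOF, a membrane-repair protein, CRIM1, a transmembrane protein that binds BMPs, and F3, tissue factor, had log2 fold changes of 0.26, 0.25 and 0.40. NT5E, an ecto-nucleotidase that makes adenosine, had 114 ± 4.17 CPM in the libraries labelled sgSEPHS2 and 165 ± 1.71 CPM in the sgCTRL libraries (log2 fold change -0.53, SE 0.04, edgeR adjusted p = 8.08e-11). ARHGEF17 and RBMS3, an RNA-binding protein, fell by 0.66 and 0.37 on the log2 scale.

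Actin genes and targets of serum response factor, which is known to act on CCN1 and CCN2 as well, also moved both ways. Of 17 tested, 6 rose, 3 fell and 8 did not pass. That is 52.9% called, beside 45.6% of all tested genes (22.2% higher and 23.4% lower), and the median log2 fold change was 0.05. The cytoplasmic actins ACTB and ACTG1 had log2 fold changes of 0.56 and 0.24, and CNN3, an actin-binding calponin, of 0.40 (edgeR adjusted p = 1.50e-10, 3.80e-05 and 1.19e-08). ACTB and ACTG1 encode near-identical proteins and have many pseudogenes. The treatment of multimapping reads is not stated, so how far their counts are affected is not known. VCL and ZYX, proteins of focal adhesions, and SRF itself were lower, with log2 fold changes of -0.24, -0.22 and -0.24 (edgeR adjusted p = 2.92e-05, 3.48e-04 and 5.60e-04). Among the genes that rose, TPM2 lost its call without sgCTRL replicate 1 (edgeR adjusted p = 0.0789).

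**Figure D5:**
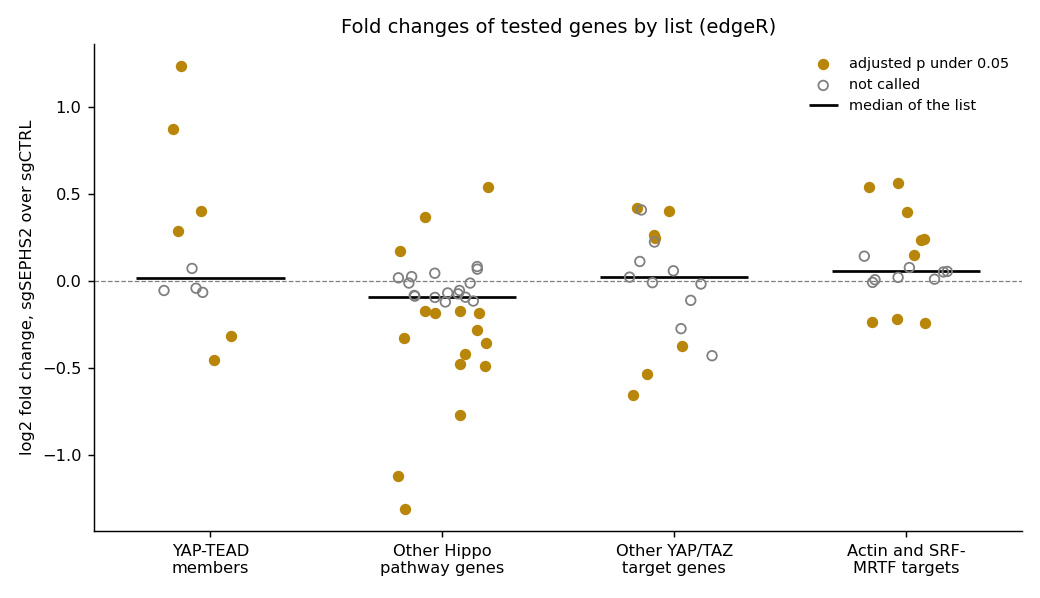
Log2 fold changes (sgSEPHS2 over sgCTRL) of the tested genes in each list; filled points have an edgeR adjusted p under 0.05, open points do not, and lines are list medians (0.01, -0.09, 0.02 and 0.05, left to right). Genes of every list lie on both sides of 0.

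Genes with a pattern close to those of CCN1 and CCN2 were found by the Euclidean distance between centred log2 CPM over the 6 libraries, among 14042 genes. Nearest to CCN1 were ZNF320, MTERF3 and LRP8, with distances of 0.02, 0.03 and 0.03 and log2 fold changes of 0.29, 0.28 and 0.30. Nearest to CCN2 were GDA, FLRT2 and LOC124907389, with distances of 0.10, 0.13 and 0.13 and log2 fold changes of 0.89, 0.91 and 0.91. FLRT2 and LOC124907389 had identical counts, so that their reads cannot be assigned to either.

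The melanoma label was read against melanocyte lineage markers. SOX10 averaged 569 ± 13 CPM in the libraries labelled sgSEPHS2 and 619 ± 15.6 CPM in the sgCTRL libraries (SD, n = 3 each; log2 fold change -0.12, edgeR adjusted p = 0.0172). Its call as lower was lost without sgSEPHS2 replicate 3, sgCTRL replicate 1 or sgCTRL replicate 2 (edgeR adjusted p = 0.0533, 0.0676 and 0.0616). MITF fell, with 18.5 ± 0.668 CPM in the libraries labelled sgSEPHS2 and 23.5 ± 1.3 CPM in the sgCTRL libraries (log2 fold change -0.35, edgeR adjusted p = 9.93e-05). S100B had 33.1 ± 2.51 CPM in the libraries labelled sgSEPHS2 and 33.9 ± 1.53 CPM in the sgCTRL libraries and did not pass. Of 5 tested markers of this lineage 2 fell and none rose. That is 40% called, beside 45.6% of all tested genes (22.2% higher and 23.4% lower). The list's summed level, most of it SOX10, was 612 to 638 CPM in the libraries labelled sgSEPHS2. In the sgCTRL libraries it was 660.0 to 688 CPM. The pigment genes PMEL and MLANA were near 1 CPM, and TYR had 6, 0 and 4 reads in the libraries labelled sgSEPHS2 and none in the sgCTRL libraries. Among markers of other cell types KRT14, of basal epithelium, and LUM, of fibroblasts, rose, with log2 fold changes of 2.14 and 0.76. KRT14 had 64, 49 and 50 reads in the libraries labelled sgSEPHS2 and 10, 17 and 12 reads in the sgCTRL libraries. The other tested epithelial and fibroblast markers, EPCAM, PDGFRA and DCN, did not pass, with log2 fold changes of -0.19, -0.08 and 0.85. The summed level ranged from 2 to 2.55 CPM in the libraries labelled sgSEPHS2 and from 0.902 to 1.83 CPM in the sgCTRL libraries for epithelial markers. It ranged from 16.4 to 19.8 CPM in the libraries labelled sgSEPHS2 and from 13.5 to 16.4 CPM in the sgCTRL libraries for fibroblast markers. Endothelial markers summed to 5.65 to 6.83 CPM in the libraries labelled sgSEPHS2 and 6.49 to 7.99 CPM in the sgCTRL libraries, and leukocyte markers to 0.209 to 0.293 CPM in the libraries labelled sgSEPHS2 and 0.237 to 0.701 CPM in the sgCTRL libraries. Only 2 of 3 endothelial and 1 of 3 leukocyte markers were tested, and none of these passed. The part of these cell types in the results was not tested.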

How the data were processed

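For 6 libraries, whole-number counts of reads by gene symbol were deposited, not normalized. HISAT2 2.2.1, featureCounts 2.0.6, SAMtools 1.21, FastQC 0.12.1 and the build GRCh38 are named, per the submitters' processing notes, while the annotation, strand setting and treatment of multimapping reads are not stated there. The counts went into edgeR 4.0.16 in R 4.3.3 (TMM factors, default filter with the group, robust quasi-likelihood F-test, two-sided, Benjamini-Hochberg adjustment over 16910 genes); an SE is the log2 fold change divided by the square root of F. The procedure was also run on simulated counts with 200 genes changed, whereas 7714 genes were called in these data. That run therefore does not measure how many calls here are false. Exon lengths came from GENCODE 29 and positions and promoters from RefSeq on GRCh38.p14. DESeq2 1.42.0, limma-voom (limma 3.58.1), RLE and upper-quartile factors, other filters, a replicate block and leaving out each library were alternatives; leaving out chromosomes 13 and 18 was added after seeing the data. The members and lists were chosen with earlier results of these data known. Named genes were the 10 members, SEPHS2, up to 6 genes per list by smallest adjusted p, and the 3 nearest genes to CCN1 and to CCN2. TEAD3, VGLL3, FAT4, WTIP, SAV1 and the rest of the core kinase cassette fall outside that rule. So do F3, IGFBP3, NUAK2, FJX1, CCDC80 and TPM2, and all of these were named after their values were seen. Figures used matplotlib 3.10.9.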

Additional observations from a re-analysis of the deposited data

How the results depend on the processing

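The 6 calls among the 10 genes kept their direction and side of the threshold under both other scalings, both other filters, DESeq2, limma-voom, the replicate block and each left-out library, and those of the 5 genes outside chromosome 13 did so without chromosomes 13 and 18. That setting leaves 1 gene lower, since it removes LATS2. YAP1 was the only uncalled member to gain a call, without sgSEPHS2 replicate 1. With 1 library left out, the log2 fold change ranged from 0.76 to 0.95 for CCN2, from 0.27 to 0.30 for CCN1, from 0.31 to 0.48 for AJUBA, from -0.33 to -0.29 for WWTR1 and from -0.48 to -0.42 for LATS2. Libraries with the same replicate number did not deviate together (r of -0.25 to 0.01 across genes), so the numbers were not taken as pairs. Between libraries with different numbers r ranged from -0.25 to 0.30, and a batch shared in another order was not tested. With the replicate number as a block 3831 genes were higher and 4046 lower, and no call of the 10 genes changed. Over all genes 3088 to 3555 were higher and 3273 to 3919 lower with 1 library left out, against 3749 and 3965 with all 6. The difference in log2 ratio ranged from 0.18 to 0.29 for YAP1 to WWTR1, from -0.18 to -0.07 for TEAD1 to TEAD4 and from -0.66 to -0.48 for CCN1 to CCN2.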

Other observations

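IGFBP3, a gene of the YAP and TAZ target signature that did not pass the test, was named after its values were seen. It had 1412, 2209 and 3206 reads in the libraries labelled sgSEPHS2 and 3825, 3051 and 2693 reads in the sgCTRL libraries. The log2 fold change was -0.43 (edgeR adjusted p = 0.324), and -0.73 without sgSEPHS2 replicate 3 (edgeR adjusted p = 0.0384). Other uncalled genes of this signature also gained a call when a single library was left out. NUAK2 was called lower without sgCTRL replicate 3 (log2 fold change -0.47, edgeR adjusted p = 0.0115). CCDC80 was called lower without sgSEPHS2 replicate 1 (log2 fold change -0.18, edgeR adjusted p = 0.0477). FJX1 was called higher without sgCTRL replicate 2 (log2 fold change 0.32, edgeR adjusted p = 0.0437).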
